A study of Mus musculus with 6 samples.

Results

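Forebrain cholinergic neurons make acetylcholine and are found in the basal forebrain and, as interneurons, in the striatum. Most of them descend from progenitors of the medial ganglionic eminence and the neighbouring preoptic area that express Nkx2-1, and the LIM homeodomain factors Lhx8 and Isl1 act in their specification. The 7 genes described here were listed by name and found as the rows of the count table with those symbols, 7 of the 55416 genes in the table. Chat encodes choline acetyltransferase, which makes acetylcholine. Slc18a3 encodes the transporter that loads acetylcholine into vesicles. Slc5a7 encodes the high-affinity choline transporter of cholinergic terminals. Ache encodes acetylcholinesterase, which breaks the transmitter down. Ngfr encodes the low-affinity neurotrophin receptor, a classical marker of basal forebrain cholinergic neurons. Gbx1 and Gbx2 encode homeodomain transcription factors that are expressed in the developing ventral forebrain, and Gbx2 acts in the development of striatal cholinergic interneurons.

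The libraries were made from total RNA of mouse ganglionic eminences, the ventral swellings of the embryonic forebrain, dissected at stage E13.5 (E for embryonic day). There were 3 libraries from embryos with a double knockout of Dlx1 and Dlx2, homeodomain genes of the ventral forebrain, and 3 from wild-type littermates. The labels name no strain, allele, Cre driver, sex or pooling of embryos and do not separate the medial, lateral and caudal eminences, so each library is a mixture of their cells. In such tissue, fewer cells of a type and less RNA per cell cannot be told apart.

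Total counts were between 56618090 and 70114173 per library, so 3 reads corresponded to between 0.0432 and 0.052 CPM (the unit used throughout, a gene's share of its library's reads after scaling by the trimmed mean of M values). Dlx1 fell from 438.9 to 81.6 CPM and Dlx2 from 295.7 to 8.68 CPM, and no library went against its label. The 9 markers of the ganglionic eminences were read in every library and summed to 1548 to 1601 CPM in wild-type and 1043 to 1193 CPM in double knockout libraries. Of the 9, 5 were called lower and 1 higher, against 1.34% each of all tested genes. Double knockout replicate 3 stood apart from the other 2 of its group by the chi-square statistic per gene. This was 36.4 and 29.7 against replicates 1 and 2, compared with 13.1 between those. It ranged from 20.4 to 21.7 among the wild-type libraries. Correlations of log2 CPM did not set replicate 3 apart, at 0.989 and 0.9886 against replicates 1 and 2 and 0.9892 between those.

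Chat and Slc18a3 form the cholinergic gene locus, in which the single exon of Slc18a3 lies inside the gene body of Chat on the same strand. No exon bases were shared between them in the GENCODE M21 annotation. Reads from unspliced Chat RNA, which a total RNA library can hold, could be counted as Slc18a3. The stretches of 250 bases before the annotated starts of both genes are shown because they belong to the enzyme and the transporter of 1 locus, with starts 1059 bases apart. They come from RefSeq on GRCm38.p6, minus strand, chr14:32465910-32466159 for Chat and chr14:32464851-32465100 for Slc18a3. The submitters' processing notes name GRCm39, so these positions do not apply to the build of the counts. The stretch of Gbx2, on the minus strand at chr1:89931177-89931426 of the same build, is shown because it was the only one of the 6 listed genes with an entry to hold TAATT, a core letter sequence bound by many homeodomain proteins. The match is in capitals, written 5′ to 3′, and begins 126 bases before the start.
Chat: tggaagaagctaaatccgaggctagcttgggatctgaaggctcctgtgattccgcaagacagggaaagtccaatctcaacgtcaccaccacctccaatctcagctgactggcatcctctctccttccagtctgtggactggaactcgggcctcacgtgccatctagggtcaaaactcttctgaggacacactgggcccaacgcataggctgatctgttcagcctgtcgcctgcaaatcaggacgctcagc
Slc18a3: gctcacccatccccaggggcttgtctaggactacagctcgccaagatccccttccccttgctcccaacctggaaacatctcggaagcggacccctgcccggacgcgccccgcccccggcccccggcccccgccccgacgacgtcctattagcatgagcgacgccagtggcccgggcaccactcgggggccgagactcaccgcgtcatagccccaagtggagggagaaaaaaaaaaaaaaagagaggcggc
Gbx2: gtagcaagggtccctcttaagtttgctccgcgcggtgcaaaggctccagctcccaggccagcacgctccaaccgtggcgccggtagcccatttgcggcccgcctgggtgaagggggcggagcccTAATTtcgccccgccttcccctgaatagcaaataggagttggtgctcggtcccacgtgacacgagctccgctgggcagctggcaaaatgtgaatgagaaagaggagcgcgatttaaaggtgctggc

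TAATT was searched on both strands, and 8223 of the 32851 stretches of this length in the table held it. The longer TAATTA, which contains TAATT, was in none of the 6 stretches and in 4.84% of all of them. A match describes letters and not a bound site. Gbx1 had no entry.

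All 7 genes passed the filter on low counts, and the quasi-likelihood test of edgeR called none of them (threshold 0.05 on the adjusted p). It called 634 of all 23628 tested genes (2.68%), 317 higher in the double knockout (1.34%) and 317 lower (1.34%). An unadjusted p under 0.05 in edgeR was found for 3 of the 7, Ngfr, Gbx1 and Gbx2, against 3149 of the 23628 tested genes. DESeq2 called these 3, against 1162 of the 23628 tested genes. limma-voom called 0 of the 7, against 615 of all tested genes. The same 3 had no overlap between the genotypes, Gbx2 with all double knockout libraries above the wild type and Ngfr and Gbx1 with all below, against 19.5% of all tested genes without overlap (9.3% above and 10.2% below). The median log2 fold change of the 7 was -0.0434, and that of all tested genes was -0.00161. The 4 genes of acetylcholine synthesis, transport and breakdown overlapped between the genotypes.

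**Figure D1:**
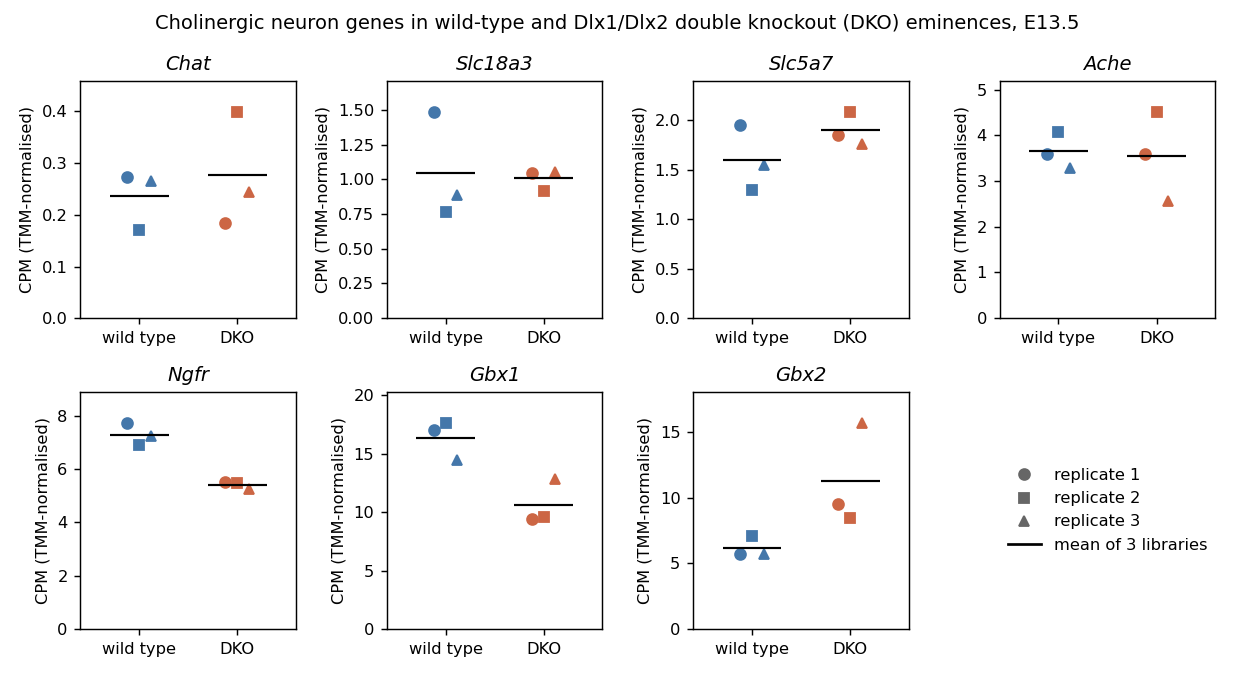
Level of each gene in CPM (TMM-normalised, linear axis from 0) in the 3 wild-type and 3 double knockout (DKO) libraries. Symbols are replicates and lines are group means. The groups overlap for Chat, Slc18a3, Slc5a7 and Ache, and do not overlap for Ngfr, Gbx1 and Gbx2.

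Chat was close to the limit of detection in every library. The wild-type libraries held 16, 11 and 17 reads and the double knockout libraries 12, 23 and 17. The group means were 0.236 ± 0.0567 and 0.276 ± 0.11 CPM (SD, n = 3 each). The log2 fold change was 0.21 (SE 0.405), with a 95% interval from -0.71 to 1.14 and edgeR gave an adjusted p of 0.895. The interval runs from a 0.612-fold to a 2.20-fold level. Of the tested genes, 9.14% had a lower mean level. Without double knockout replicate 2, which held the highest count, the log2 fold change was -0.13.

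Slc18a3 had more reads than Chat in each library, with 87, 49 and 57 in the wild type and 68, 53 and 73 in the double knockout. Wild-type replicate 1 was the highest of all 6. The means were 1.05 ± 0.386 CPM and 1.01 ± 0.0755 CPM (SD, n = 3 each), with a log2 fold change of -0.05 (95% interval -0.67 to 0.57) and an adjusted p of 0.969 in edgeR. Without wild-type replicate 1 the log2 fold change was 0.29, also not called.

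Slc5a7 was counted at 114, 83 and 99 reads in the wild type and at 120, 120 and 122 in the double knockout. The double knockout libraries were close together, at 1.76 to 2.08 CPM, and wild-type replicate 1, at 1.95 CPM, lay among them. The log2 fold change was 0.25 (95% interval -0.18 to 0.69), with an adjusted p of 0.671 in edgeR. Its direction was upward in all 15 alternative settings, with log2 fold changes from 0.12 to 0.42, and it was called in none of them.

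Ache was the most expressed of these 4 genes, with 211, 262 and 211 reads in the wild type and 233, 260 and 178 in the double knockout. The double knockout held both the highest level, 4.51 CPM in replicate 2, and the lowest, 2.57 CPM in replicate 3. The log2 fold change was -0.04 (95% interval -0.51 to 0.42), with an adjusted p of 0.962 in edgeR. Ache is also expressed in red blood cells. The 9 red blood cell markers summed to 101.9 to 120.3 CPM in the wild type and 94.9 to 132.7 CPM in the double knockout, and 0 of 9 were called. In double knockout replicate 3, which had the lowest Ache level, they were at 132.7 CPM. Their part in the Ache level was not tested. The exons of Ache share 98 bases with Gm42456 on the opposite strand in GENCODE M21, and Gm42456 had at most 1 read in a library.

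Ngfr was lower in the double knockout in every library. The wild-type libraries were at 7.75, 6.92 and 7.23 CPM (454, 445 and 464 reads), and the double knockout libraries at 5.53, 5.48 and 5.25 CPM (359, 316 and 364 reads). The spread within the double knockout, an SD of 0.151 CPM, was small beside the difference of the means, 7.30 and 5.42 CPM. The level in the double knockout was 74.2% of the wild type, with a log2 fold change of -0.43 (SE 0.0986, 95% interval -0.65 to -0.20), an unadjusted p of 0.00208 and an adjusted p of 0.0654 in edgeR. It passed the threshold in DESeq2, with an adjusted p of 0.0115, and in none of the other 14 alternative settings, where the adjusted p reached 0.268.

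Ngfr is also expressed in neural crest derivatives, in meningeal and mesenchymal cells and in early cortical neurons. Of the 7 neural crest and Schwann cell markers, 3 of 6 tested rose (Sox10, Cdh19 and Tfap2a), against 1.34% of all tested genes. The sum of the 7 was 10.1 to 12.3 CPM in the wild type and 16.2 to 20.6 CPM in the double knockout, opposite in direction to Ngfr. Foxd3 had no read in any library. Sox10 also marks oligodendrocyte precursors. The 8 meningeal and mesenchymal markers overlapped, at 48.0 to 64.6 and 52.8 to 55.4 CPM, and none was called. The 6 cortical neuron markers were lower in sum, at 1070 to 1097 and 851.0 to 973.6 CPM. Of the 6, 1 was called, Neurod2, against 2.68% of all tested genes. The part of these cell types in the Ngfr difference was not tested.

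Gbx1 had the highest level of the 7 genes in the wild type, at 17.0, 17.7 and 14.5 CPM. The double knockout libraries were at 9.43, 9.54 and 12.8 CPM, all below the wild type, with replicate 3 the closest to it. The double knockout mean was 64.7% of the wild type, or -0.63 on the log2 scale (SE 0.138, 95% interval -0.94 to -0.31). edgeR gave an unadjusted p of 0.00158 and an adjusted p of 0.0552. Without double knockout replicate 3 it was -0.78, with an adjusted p of 0.00725, and it was called. It was also called in DESeq2 (adjusted p 4.77e-04) and without a filter on low counts (adjusted p 0.0114 in edgeR).

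Gbx2 went the other way. The wild-type libraries were at 5.67, 7.08 and 5.69 CPM and the double knockout libraries at 9.54, 8.45 and 15.7 CPM. Replicate 3 again had the highest level of the double knockout, and the difference to the wild-type libraries was smallest in replicate 2. The log2 fold change was 0.87 (SE 0.224), a 1.83-fold level with a 95% interval from 1.28-fold to 2.61-fold, an unadjusted p of 0.00413 and, from edgeR, an adjusted p of 0.099. Without double knockout replicate 3 the log2 fold change was 0.56, with an adjusted p of 0.0785. Gbx2 was called in DESeq2 (adjusted p 0.0012) and without a filter (adjusted p 0.0145 in edgeR).

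The exons of Gbx2 share 946 of their 2177 bases with D130058E05Rik on the opposite strand in GENCODE M21, and whether counting used strand is not given in the sources used here. The counts of Gbx2 are uncertain for this reason. D130058E05Rik, named after its values were seen, had 29, 29 and 22 reads in the wild type and 61, 53 and 66 in the double knockout. It was called higher in edgeR (adjusted p 0.0416), by 1.12 on the log2 scale (SE 0.231). Its reads were few beside the 332 to 1089 reads of Gbx2. With the strand setting unknown, that count does not bound its part in the Gbx2 reads.

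Within a library, the reads of Gbx2 were 0.333, 0.401 and 0.393 times those of Gbx1 in the wild type and 1.01, 0.886 and 1.23 times in the double knockout. The ranges were far apart, which follows from Gbx2 being higher and Gbx1 lower in every double knockout library and adds no further evidence. The summed level of both genes overlapped, at 20.2 to 24.7 CPM in the wild type and 18.0 to 28.5 CPM in the double knockout.

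**Figure D2:**
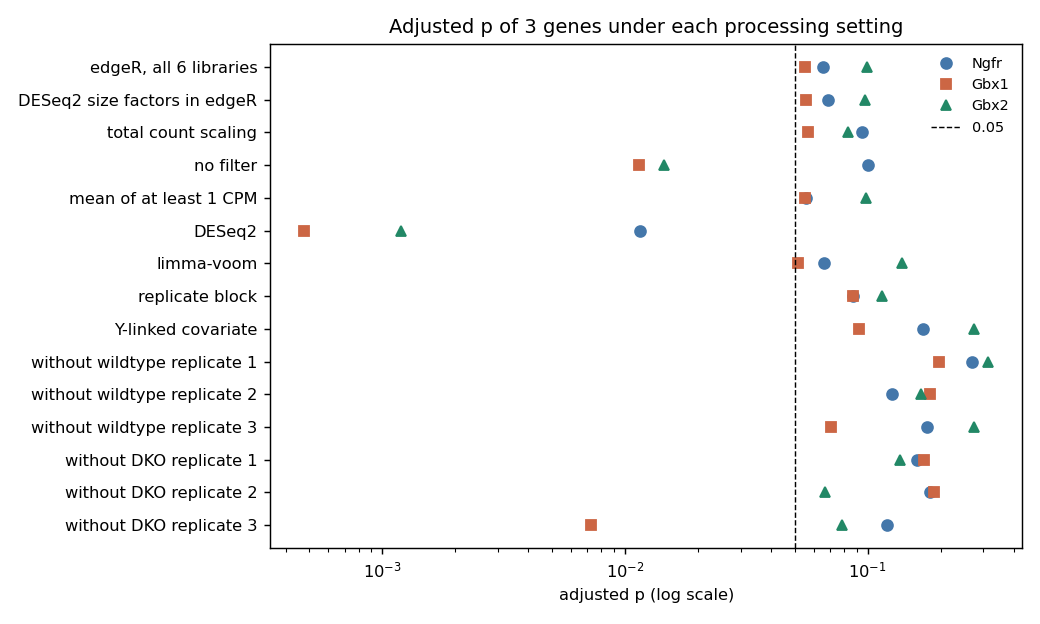
Adjusted p (log axis) of Ngfr, Gbx1 and Gbx2 under the main edgeR test, with all 6 libraries, and 14 alternatives. The dashed line is 0.05. Most points lie right of the line. DESeq2 places all 3 genes left of it, no filter places Gbx1 and Gbx2 there, and leaving out double knockout (DKO) replicate 3 places Gbx1 there.

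Levels were compared between genes per kilobase of exon, with exon lengths from GENCODE M21. The place of Gbx2 in both genotypes carries the uncertainty of its counts from the exons shared with D130058E05Rik. In the wild type the order was Gbx1 at 4.71 ± 0.482, Gbx2 at 2.82 ± 0.372, Ngfr at 2.12 ± 0.121 and Ache at 0.791 ± 0.0857 CPM per kilobase (SD, n = 3 each). Slc18a3 at 0.433 ± 0.16, Slc5a7 at 0.282 ± 0.0585 and Chat at 0.0503 ± 0.0121 CPM per kilobase followed. The libraries of neighbours in this order did not overlap except those of Slc18a3 and Slc5a7. In the double knockout Gbx2 was first, at 5.16 ± 1.8, and Gbx1 the next, at 3.05 ± 0.554 CPM per kilobase, and their libraries did not overlap, at 3.88 to 7.21 and 2.71 to 3.69. The order of the other 5 genes by mean was as in the wild type. Chat, the gene of the synthesising enzyme, was thus listed last in both genotypes, below the transporter gene within its own locus.

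The other genes of the pathway were taken from 4 lists. The first held 12 regulators of ventral forebrain identity and cholinergic fate. All 12 were tested and 5 were called (41.7%, against 2.68% of all tested genes), 3 higher and 2 lower, with a median log2 fold change of 0.21. Earlier results on Nkx2-1, Isl1 and Lhx6 in these libraries were known when the list was written, so the count is not independent evidence. Lhx8, a LIM homeodomain factor required for forebrain cholinergic neurons, fell most among the 12. It was at 57.0, 59.8 and 52.3 CPM in the wild type and at 19.6, 21.0 and 31.7 CPM in the double knockout, a level of 42.8% of the wild type. On the log2 scale this was -1.22 (SE 0.165; adjusted p 0.00622 in edgeR), and Lhx8 was called in all 15 alternative settings.

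Lhx6, which acts in the GABAergic interneurons of the medial eminence, fell to 56.2% of the wild type, with 165.0 to 178.4 CPM in the wild type and 75.5 to 125.4 CPM in the double knockout (adjusted p 0.0298 in edgeR). Its exons hold 104 bases of Gm27953 on the same strand. Isl1, which acts with Lhx8 in cholinergic differentiation, rose from 59.3 to 65.3 CPM in the wild type to 87.99 to 106.3 CPM in the double knockout (adjusted p 0.00442) and was called in all 15 alternatives. Which cells of the mixed tissue held the Isl1 reads was not tested. Nkx2-1, a regional factor of the medial eminence and the preoptic area, rose from 118.5 to 138.7 CPM to 168.99 to 230.9 CPM (adjusted p 0.0322), and was called in 9 of 15. Zic1, a zinc finger factor of the septum and preoptic area, rose from 123.7 to 190.1 CPM to 228.7 to 269.5 CPM (adjusted p 0.0346) and was also called in 9 of 15. Its exons share 60 bases with Zic4 on the opposite strand. Lhx6 was called in 8 of 15. Leaving out 1 library ended several of these calls: Nkx2-1 without any wild-type library or double knockout replicate 1 (adjusted p 0.064 to 0.147), Zic1 without wild-type replicate 1 or 2 or double knockout replicate 1 or 2 (0.111 to 0.14), and Lhx6 without any library other than double knockout replicate 3 (0.0534 to 0.118). The other 7 were not called, among them Shh, Fgf8, Fgf17, Zic4, Etv1 and Six3.

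**Figure D3:**
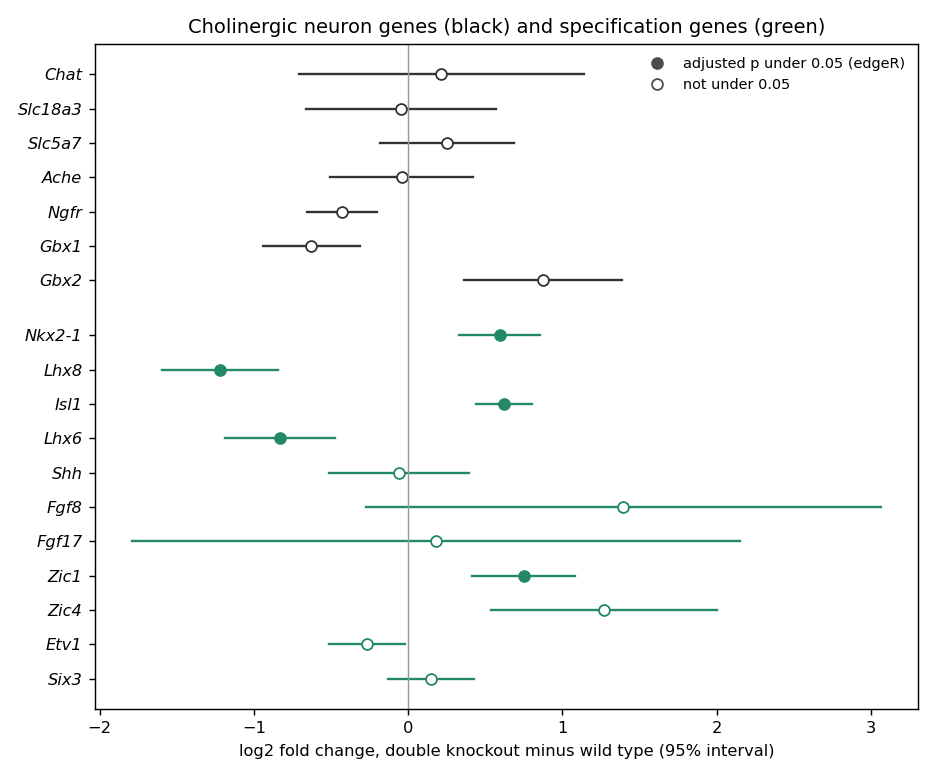
Log2 fold changes (double knockout minus wild type) with 95% intervals from edgeR for the 7 cholinergic neuron genes (black) and 11 of the 12 regulators (green). Filled points have an adjusted p under 0.05. No black point is filled, and the point of Lhx8 lies farthest to the left.

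Double knockout replicate 3 was the highest of its group for Gbx1, Gbx2, Lhx8, Lhx6, Nkx2-1 and Isl1, at 1.35, 1.75, 1.56, 1.53, 1.33 and 1.2 times the mean of replicates 1 and 2. It was the lowest for Fgf17 and Zic4, at 0.165 and 0.664 times that mean. Reads were also expressed as a percentage of the Nkx2-1 reads of the same library. Nkx2-1 marks the medial eminence but is also expressed in the preoptic area. The percentages are therefore not levels per medial eminence cell. This measure was chosen after the values had been seen and has no test. Because Nkx2-1 itself was at 150.7% of its wild-type level, a gene with an equal level in both genotypes would be lower on this scale. In every double knockout library Nkx2-1 was higher and Gbx1, Lhx8, Lhx6 and Ngfr were lower than in the wild type. Separate genotypes on this scale were therefore fixed in advance for Gbx1, Lhx8, Lhx6 and Ngfr.

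On that scale Gbx1 was at 14.4%, 12.7% and 11.4% in the wild type and at 5.27%, 5.65% and 5.55% in the double knockout, and replicate 3 lay between the other 2 of its group. Lhx8 was at 41.2% to 48.1% and 10.98% to 13.7%. Lhx6 was at 124.4% to 150.6% and 44.7% to 54.3%, and Ngfr at 4.99% to 6.54% and 2.27% to 3.24%. Gbx2 was at 4.78%, 5.10% and 4.49% in the wild type and at 5.33%, 4.998% and 6.80% in the double knockout. The genotypes overlapped for Gbx2 and for Isl1, at 42.8% to 51.5% and 46.0% to 53.0%. Relative to the wild-type mean, the double knockout mean on this scale was 42.8% for Gbx1, 28.1% for Lhx8 and 119.2% for Gbx2.

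**Figure D4:**
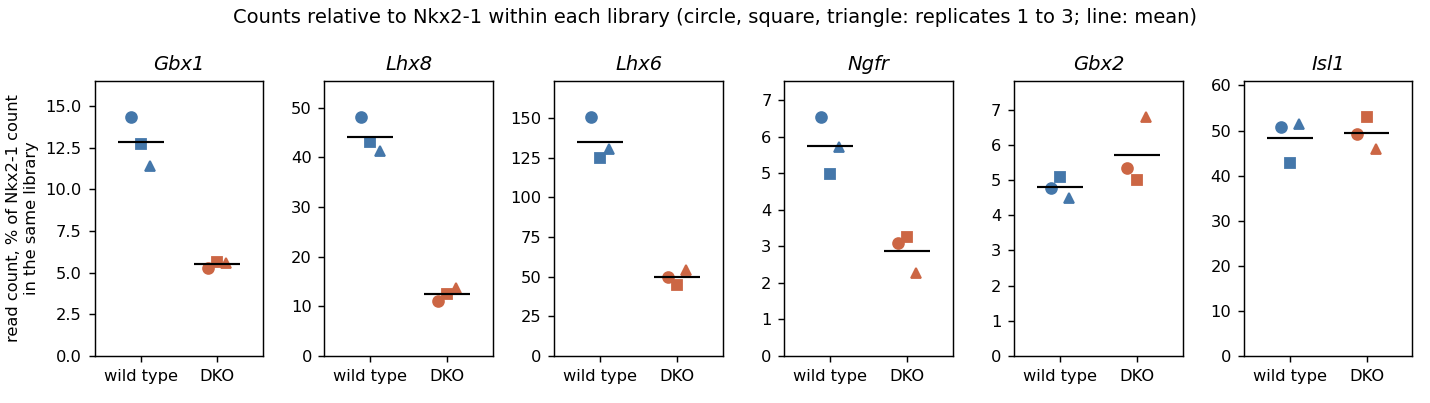
Read counts as a percentage of the Nkx2-1 count of the same library (linear axes from 0), for 6 genes. Circles, squares and triangles are replicates 1 to 3 and lines are means. The genotypes are separate for Gbx1, Lhx8, Lhx6 and Ngfr and overlap for Gbx2 and Isl1.

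Gbx2 is expressed in the thalamus and at the border of midbrain and hindbrain, and cholinergic genes in brainstem motor neurons. The 8 thalamic and habenular markers summed to 79.1 to 91.8 CPM in the wild type. In double knockout replicates 1 and 2 they summed to 124.7 and 130.4 CPM, above every wild-type library. In double knockout replicate 3, which had the highest Gbx2 level, they summed to 83.7 CPM, within the wild-type range. Of the 8, 1 was called, Irx2, higher, against 1.34% of all tested genes called higher. The 8 midbrain and hindbrain markers summed to at most 0.878 CPM and the 7 motor neuron markers to at most 0.909 CPM in any library. Hoxb2 had no read in any library, and Mnx1 none in the wild type. Of the 8 hypothalamic markers, 3 rose (Otp, Hmx2 and Hmx3), against 1.34% of all tested genes called higher. Sim1, Fezf1 and Pomc overlapped between the genotypes. The markers summed to 28.4 to 49.2 and 143.1 to 179.1 CPM, of which Otp alone was at 5.27 to 11.96 and 112.9 to 121.3 CPM. Without Otp the sums were 23.1 to 37.3 CPM in the wild type and 57.8, 56.7 and 22.1 CPM in double knockout replicates 1, 2 and 3, so replicate 3 was the lowest of all 6 libraries. Rax was at 0 in the wild type. Their part in the difference of Gbx2 was not tested.

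The second list held 12 genes of choline supply and acetylcholine handling. Of these, 10 were tested and none was called in edgeR, DESeq2 or limma-voom, with a median log2 fold change of 0.02. The genotypes did not overlap for 3 of the 10, against 19.5% of all tested genes. The same 3 had an unadjusted p under 0.05 in edgeR, against 3149 of the 23628 tested genes. Bche, which encodes butyrylcholinesterase, was at 4.86 ± 0.148 and 6.18 ± 0.371 CPM (adjusted p 0.164 in edgeR). Slc10a4, whose product sits on vesicles of cholinergic and monoaminergic neurons, was at 12.99 ± 1.05 and 10.9 ± 0.514 CPM (adjusted p 0.263). Slc44a5, a choline transporter-like gene, was at 21.2 ± 1.49 and 17.5 ± 0.898 CPM (adjusted p 0.157).

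The third list held 13 genes of neurotrophins, their receptors and partners of the Ngfr protein. Of these, 12 were tested and none was called in edgeR with all libraries, with a median log2 fold change of -0.16. An unadjusted p under 0.05 in edgeR was found for 2 genes, Ntrk3 and Rtn4r, against 3149 of all 23628 tested genes. Ntrk3, a neurotrophin receptor gene, came closest to the threshold, with all double knockout libraries below the wild type, 69.2% of the wild-type mean and, in edgeR, an adjusted p of 0.0693. Ntrk3 was called lower in DESeq2 (adjusted p 0.00119) and, with edgeR, without a filter (0.00687), with the replicate number as a block (0.0484) and without double knockout replicate 1 (0.0471). limma-voom called none of the 12.

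The fourth list held 21 acetylcholine receptor genes. Of 16 tested, 5 were called (31.2%, against 2.68% of all tested genes), 3 higher and 2 lower. Earlier results of these data were known when this list was chosen, so the count is not independent evidence. It became 2 at an adjusted p under 0.01 and 2 to 6 with a library left out. The median log2 fold change was -0.10. Chrna4, which encodes a subunit of the main nicotinic receptor of the brain, rose from 24.2, 25.3 and 25.9 CPM to 51.3, 49.2 and 46.5 CPM. This was a log2 difference of 0.96 (SE 0.0626; adjusted p 1.15e-04 in edgeR), called in all 15 alternatives. Its usual partner subunit gene Chrnb2 was at 89.2 ± 2.995 and 80.7 ± 2.14 CPM, with an adjusted p of 0.203, and its exons share 1365 bases with Adar on the opposite strand.

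Chrnd, a subunit gene of the muscle receptor, had no read in the wild type and 37, 16 and 30 reads in the double knockout. Against a floor of 3 counts per library it was at least 8.85-fold higher, at 0.427 CPM, and was called in all 13 alternatives that gave it an adjusted p. DESeq2 gave it none, and the minimum mean of 1 CPM left it out. Among the muscarinic receptors, Chrm4, which is coupled to inhibition of cAMP, rose from 1.63 ± 0.376 to 3.44 ± 0.358 CPM (adjusted p 0.0246 in edgeR). Chrm1, coupled to phospholipase C, fell from 5.56 ± 1.05 to 2.78 ± 0.42 CPM (adjusted p 0.0218), and its exons hold Gm22820 on the opposite strand. Chrna2 fell from 0.642 ± 0.235 to 0.154 ± 0.0626 CPM (adjusted p 0.0417), with 7 to 13 reads in each double knockout library. Chrm4, Chrm1 and Chrna2 were called in 8 of 15, 10 of 15 and 6 of 14 alternatives. Leaving out 1 library ended the call of Chrm4 for each library other than double knockout replicate 3 (adjusted p 0.0534 to 0.0656) and that of Chrna2 for each other than wild-type replicate 3 (0.0588 to 0.174). Chrm1 was lost without wild-type replicate 1 or 2 or double knockout replicate 2 (0.0764 to 0.0835).

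**Figure D5:**
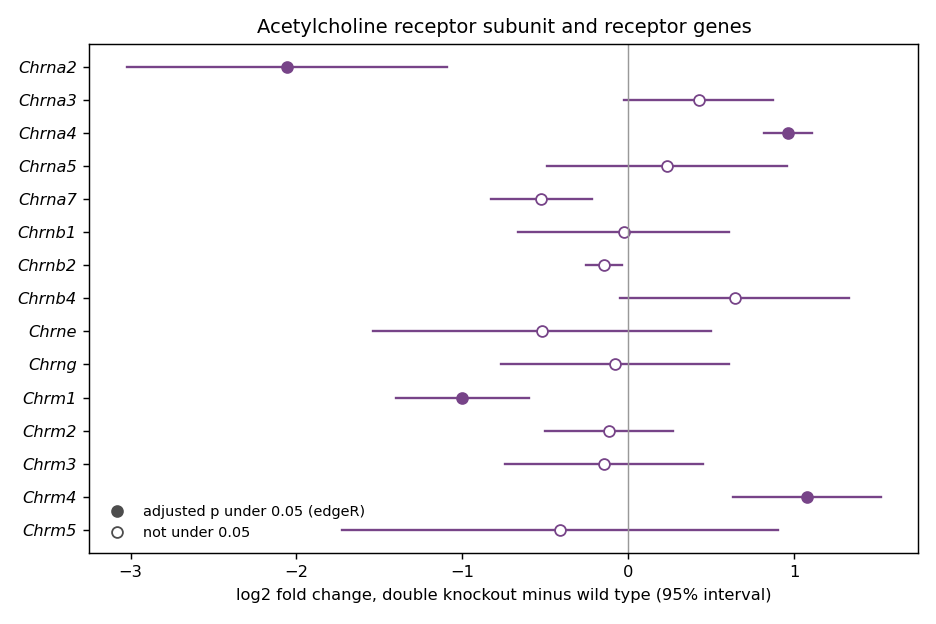
Log2 fold changes (double knockout minus wild type) with 95% intervals from edgeR for 15 tested acetylcholine receptor genes, leaving out Chrnd, which had no wild-type reads. Filled points have an adjusted p under 0.05. Chrna4 and Chrm4 lie to the right of 0 and Chrna2 and Chrm1 to the left.

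The genes with the most similar pattern over the 6 libraries were found by the Euclidean distance between centred log2 CPM profiles, among the 16481 genes whose mean reached 1 CPM. For Gbx1 they were Pou3f1 (distance 0.176, log2 fold change -0.73, adjusted p 0.00593 in edgeR) and Chrna7 (distance 0.224, log2 fold change -0.52, adjusted p 0.0934). For Gbx2 they were 2900052N01Rik (distance 0.35, log2 fold change 0.76, adjusted p 0.0728) and Olig2 (distance 0.416, log2 fold change 0.80, adjusted p 0.00969). For Ngfr they were Galnt17 (distance 0.041, log2 fold change -0.42) and Khdrbs2 (distance 0.0712, log2 fold change -0.37), with adjusted p of 0.0193 and 0.0314 in edgeR. Pou3f1, Olig2, Galnt17 and Khdrbs2 were thus called. Genes picked for a near profile over the same libraries have near fold changes, so these calls add no evidence on Gbx1, Gbx2 or Ngfr. The nearest profiles of the 4 genes of acetylcholine handling belonged to Lpcat2 and Rsad1 for Chat, Gm4430 and Adgre1 for Slc18a3, Id3 and Dennd3 for Slc5a7 and Gm42869 and Gm3252 for Ache, none of them called.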

How the data were processed

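The authors deposited raw read counts per gene, with a symbol and an Ensembl identifier. Per the submitters' processing notes, reads were counted with featureCounts on GRCm39. Per the labels' protocols, RNA was extracted from frozen tissue with a DNase step, and a stranded total RNA kit with ribosomal RNA depletion was used. The aligner, annotation release, and strand and multi-mapping settings are not given in the sources used here. Titles gave the genotype of each library.

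The filter on low counts was filterByExpr (minimum count 10, minimum total 15). Counts were scaled by TMM and tested over the whole table with edgeR 4.0.16 in R 4.3.3 (quasi-likelihood test, prior count 0.125, Benjamini-Hochberg adjustment). SE is the log2 fold change divided by the square root of F, and 95% intervals use the test's degrees of freedom. The edgeR test was tested on simulated data. CPM is TMM-normalised. The alternatives included DESeq2 1.42.0 and limma-voom (limma 3.58.1), other scalings and filters, a replicate block, a Y-linked covariate, a threshold of 0.01 and leaving out each library. Lengths and overlaps came from GENCODE M21 on GRCm38, which held all 7 genes, and sequences from RefSeq.

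The genes and lists were chosen with earlier results of these data known. Genes were named by a rule: the 7 genes, the called genes of each list, and the 2 nearest profiles of each of the 7. Values named beside these were chosen after they were seen. Some genes of the lists are not reported here. No batch is given, and nothing says whether embryos were pooled, so p-values measure the spread between these libraries. The pairing of equal replicate numbers was checked by correlating deviations from the group means. Counting intervals cover counting error only, since reads carried no molecular identifiers.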

Additional observations from a re-analysis of the deposited data

How the results depend on the processing

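The count of 0 called among the 7 genes became 2 without a filter and 3 in DESeq2, and ranged from 0 to 1 when each library was left out, the 1 being Gbx1 without double knockout replicate 3. The 634 calls over all genes became 1162 in DESeq2, 358 with summed Y-linked expression as a covariate, 275 at an adjusted p under 0.01, and 309 to 749 with a library left out. Total count scaling gave 60.4% higher calls in place of 50%. The 10 called genes of the 4 lists became 5 with the Y-linked covariate, 4 at 0.01, and 4 to 11 with a library left out (4 without wild-type replicate 1 or 2, 5 without double knockout replicate 2). The cause was not tested. The 7 genes, the 10 called genes of the lists, Dlx1 and Dlx2 were followed through the alternatives, and none of them reversed where it was called in either setting; other named genes were not followed. Chat could not be tested with a minimum mean of 1 CPM, and its direction turned without double knockout replicate 2. Slc18a3 and Ache also changed sign between settings, never called. With the replicate block, 0 of the 7 genes and 690 of all genes were called, and among the listed genes Chrna2 was lost (adjusted p 0.0554) and Ntrk3 gained (adjusted p 0.0484). Other listed genes called under an alternative only were Zic4 without a filter or wild-type replicate 3, Etv1 without double knockout replicate 1, Chrna7 in DESeq2 or without double knockout replicate 3, and Chrna3 without the latter. Equal replicate numbers had correlations of -0.0694, -0.00223 and 0.00182, within the range of unequal numbers, -0.0976 to 0.0973. With 3 libraries per genotype, these values cannot show whether equal numbers shared a litter. Chat had 44 and 52 reads per genotype and a biological coefficient of variation of 26.3% in edgeR.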

Other observations

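Fgf17, a signal of the rostral midline, differed more between replicates than between genotypes. It was at 0.546, 0.233 and 2.85 CPM in wild-type replicates 1 to 3 and at 1.65, 2.20 and 0.317 CPM in double knockout replicates 1 to 3. Zic4 was at 17.1, 19.4 and 41.8 CPM and at 67.4, 74.5 and 47.1 CPM in the same order, so wild-type replicate 3 was the highest and double knockout replicate 3 the lowest of its group for both genes. Fgf8 was at 0.239, 0 and 0.421 CPM in the wild type and at 0.539, 0.642 and 0.562 CPM in the double knockout, and was not called (adjusted p 0.485 in edgeR).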
